A study of Mus musculus with 12 samples.

Results

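The bile acid genes described here are 33 mouse genes for the synthesis, conjugation, transport and sensing of bile acids, taken by symbol from the 55357 gene identifiers that each of the deposited count tables listed. They were read in 12 RNA-seq libraries, 3 per group. The liver came from wild-type male C57BL6/J mice aged 8 to 9 weeks that received 90 mg/kg/d of the plant coumarin esculetin by daily gavage over 7 days, or the vehicle of 2.5% Tween-80 alone. All of these mice ate a control diet with 10% of its energy from fat for 4 days and then a high-fat diet with 60% for 3 days, and each liver sample pooled 2 mice. The cells were RAW264.7, a single established mouse macrophage line, kept for 24 h with DIL-oxLDL, a dye-labelled oxidized low-density lipoprotein, at 25 µg/mL and with esculetin at 40 µg/mL or its dimethyl sulfoxide solvent. The controls of the cells thus also carried oxLDL, and the controls of the liver also ate the high-fat diet. The labels did not say whether the replicates of a group were separate cultures or pools drawn on separate occasions, so the p-values measure the spread between these samples, which may be partly technical.

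Bile acids are made from cholesterol in hepatocytes by a classical route that starts with Cyp7a1 and an alternative route that starts with Cyp27a1 and Cyp7b1. They are linked to taurine or glycine, pumped into the bile canaliculus, reabsorbed in the ileum and taken up again from portal blood. The nuclear receptor FXR, encoded by Nr1h4, senses them and restrains their synthesis through the repressor SHP, encoded by Nr0b2, and through intestinal FGF15 acting on the hepatocyte receptor pair Fgfr4 and Klb.

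Total counts ran from 14659876 to 20346460 per liver library and from 13752842 to 20001959 per cell library. The bile acid genes took between 0.874% and 1.02% of each liver total and between 0.0433% and 0.0567% of each cell total. Liver control replicate 1 stood apart on the first principal component, at -33.4, while the other liver libraries lay between -2.64 and 12.6. Hepatocyte markers, led by Alb, Apoa1 and Ttr, summed to at least 110555 CPM, which are counts scaled to a common library size, in every liver library and to at most 0.415 CPM in every cell library. The macrophage markers of the cells, led by Lyz2, Csf1r and Cd68, summed to at least 2690 CPM. The genes that the results turn on were located in build GRCm39, namely Cyp7b1 (ENSMUSG00000039519, minus strand of chr3:18117411-18297740), Slco1a4 (ENSMUSG00000030237, minus strand of chr6:141751165-141802036), Nr1h4 (ENSMUSG00000047638, minus strand of chr10:89289742-89369497), Abcc3 (ENSMUSG00000020865, minus strand of chr11:94233874-94283823) and Nr0b2 (ENSMUSG00000037583, plus strand of chr4:133280678-133283847).

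Levels of different genes were compared only per length, as RPKM, which are CPM divided by the exon length in kilobases. In the liver the highest levels belonged to the side-chain thiolase Scp2 (mean 408 RPKM over 6 libraries, range 351 to 476), the bile acyl-CoA synthetase Slc27a5 (405, 312 to 459) and the steroid reductase Akr1c6 (396, 286 to 444), and these ranges overlapped. Cyp8b1, the sterol hydroxylase needed for cholic acid, followed at 224 RPKM (183 to 290), above the conjugating enzyme Baat at 144 (135 to 151), Cyp27a1 at 140 (106 to 165) and the uptake carrier Slc10a1 at 137 (121 to 151), which overlapped one another. Cyp7a1, which catalyses the rate-limiting step of the classical route, had only 2.85 RPKM (1.71 to 4.11), lower than Cyp7b1 at 11.4 RPKM (4.73 to 22.3) in every library. By mean level the sensors were ordered with Hnf4a at 96.9 RPKM, Nr0b2 at 30.2, Nr1h4 at 20.5, Fgfr4 at 6.88, Nr5a2 at 3.07 and Klb at 2.65. The ranges of Nr0b2 (15.8 to 36.4) and Nr1h4 (16.6 to 24.0) overlapped, as did those of Nr5a2 (2.53 to 3.82) and Klb (1.90 to 3.30). These levels rest on the union of all annotated exons. With the canonical transcript instead, the levels of Scp2, Akr1c6 and Slc27a5 were 1062, 871 and 491 RPKM. Slc10a1 was then at 304 RPKM, above Cyp8b1 at 224, so the order above depends on the length used. The levels of 20 of the 29 tested liver genes moved by more than the spread between libraries.

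**Figure D1:**
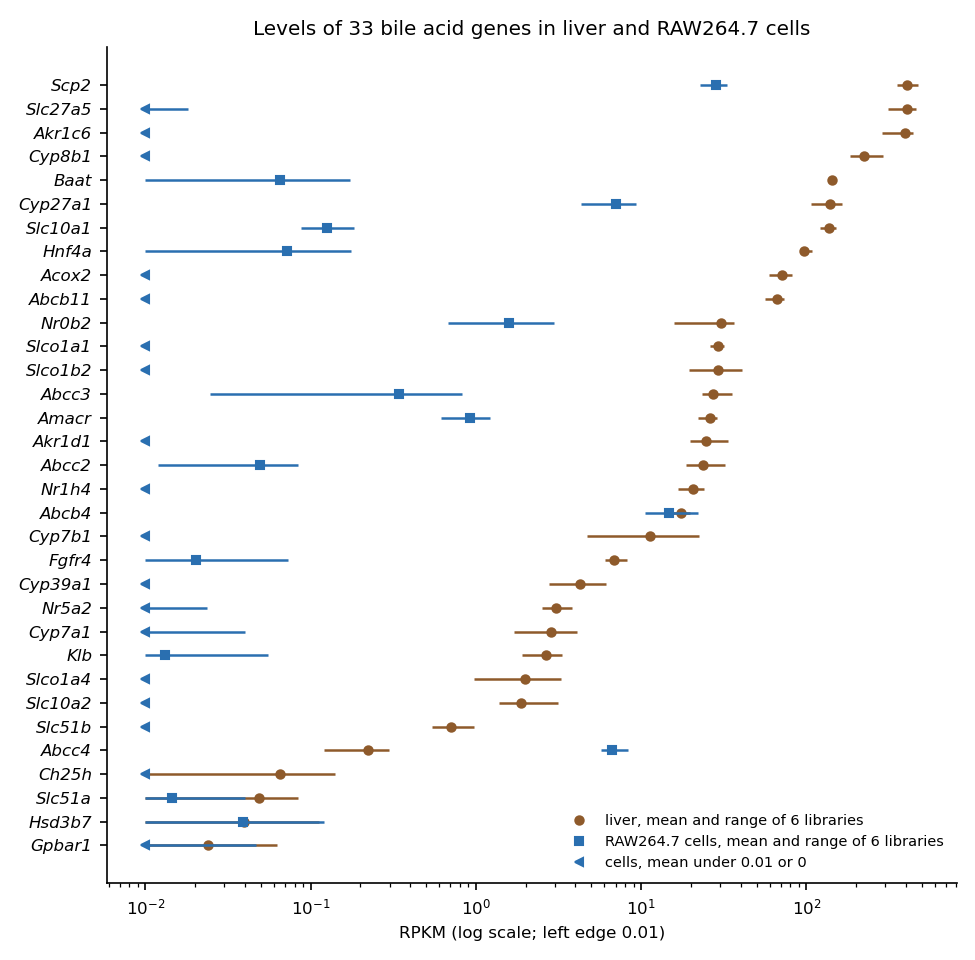
Levels of the 33 bile acid genes in RPKM on a log scale, with liver as brown circles and RAW264.7 cells as blue squares. Lines give the range over 6 libraries, values under 0.01 are drawn at the left edge, and Abcc4 was the only gene with a higher mean in the cells (6.70) than in the liver (0.224), in tables that were scaled separately.

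The liver comparison asks which of these genes esculetin changed in mice on the high-fat diet. Of the 33 genes, 29 had enough counts to be tested. None passed an adjusted p-value of 0.05 in edgeR's quasi-likelihood test, against a background of 0.0859% of all tested genes. DESeq2 called 1 of the 29, where it called 0.765% of all tested genes, and limma-voom called 0, where it called 0.0859%. The smallest adjusted p-value was 0.165. An unadjusted p-value under 0.05 was reached by 6 members, which is 20.7% of those tested where the background was 8.37%. They were Cyp7b1, Cyp8b1, Acox2, Slc10a2, Slco1a4 and Nr1h4. For 7 members, or 24.1%, the CPM values of the 3 control and the 3 esculetin libraries did not overlap, where the background was 14.5%. The criterion that the study states, unadjusted p under 0.05 by limma plus more than 1.5-fold, was met by Cyp7b1 and Slco1a4, which makes 2 of 29 (6.90%) where the background was 3.89%. Fitted changes were above 0 for 12 members and below 0 for 17, with a median log2 fold change of -0.09 beside -0.02 over all tested genes.

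**Figure D2:**
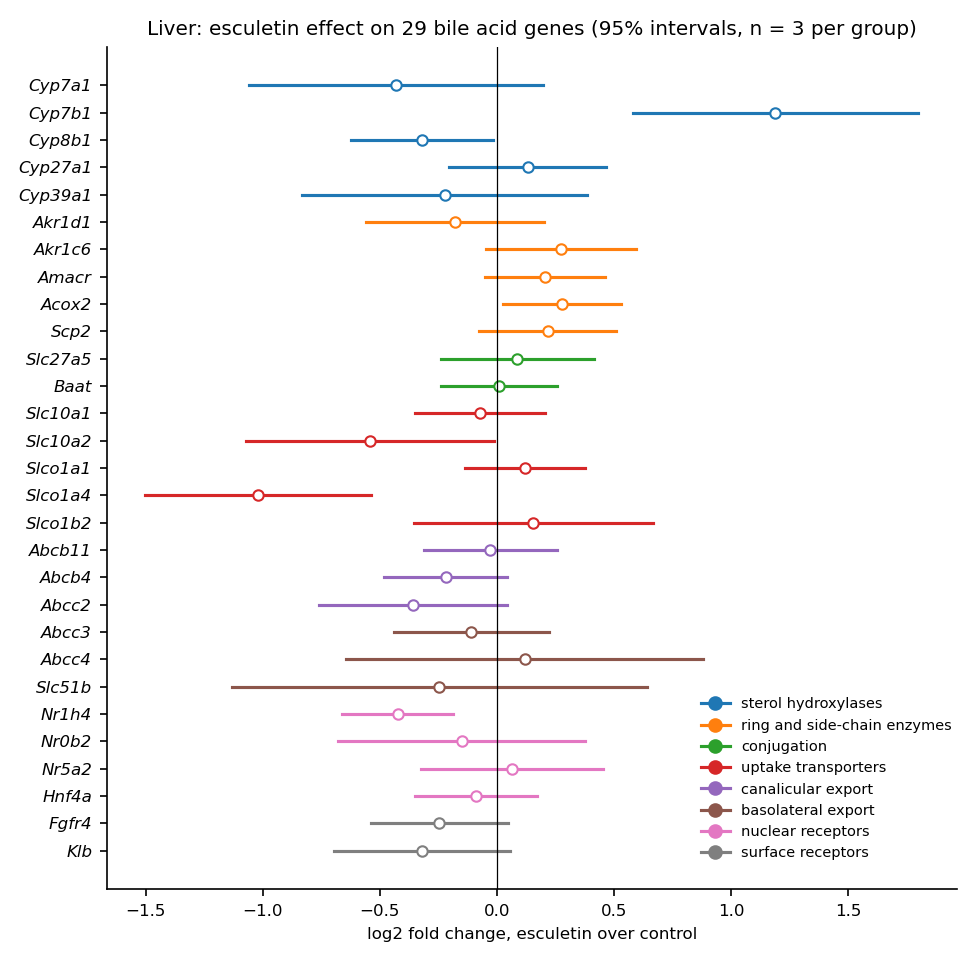
Log2 fold change of esculetin over control liver for the 29 tested bile acid genes, coloured by role, with 95% confidence intervals from the edgeR fit of 3 libraries per group. Open circles mark an adjusted p-value above 0.05, which holds for every gene, and Cyp7b1 (1.19) and Slco1a4 (-1.02) lie farthest from 0.

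Among the hydroxylases that open the synthesis routes, the widest difference was that of Cyp7b1, the oxysterol 7α-hydroxylase of the alternative route. The control livers had 55.7, 90.6 and 99.2 CPM and the esculetin livers 262, 107 and 191 CPM. The groups did not overlap, with control replicate 1 the lowest library and esculetin replicate 1 the highest. The mean was 81.8 ± 23.0 CPM in controls and 187 ± 77.8 CPM with esculetin (SD, n = 3). The log2 fold change was 1.19 (SE 0.28, 95% interval 0.58 to 1.80), a 2.28-fold difference that missed the threshold (edgeR adjusted p = 0.210). Without control replicate 1 the log2 fold change was 0.98 (edgeR adjusted p = 0.256), and without esculetin replicate 2 it was 1.46 and passed (edgeR adjusted p = 0.0388). The lowest value was 0.86 without esculetin replicate 1 (edgeR adjusted p = 0.737), and the largest adjusted p-value was 0.806 in edgeR, without esculetin replicate 3. A list of genes known to be higher in male than in female mouse liver was read beside it. Of 19 such genes tested, led by Serpina3k, Mup3 and Mup20, 18 had a fitted change above 0, 7 had an unadjusted p-value under 0.05 (background 8.37%) and 1, Ugt2b38, was called higher by edgeR (background of calls 0.0859%). Their summed level was 24861, 38434 and 43670 CPM in the controls and 57143, 43399 and 55983 CPM with esculetin, and control replicate 1 and esculetin replicate 1 were its lowest and highest libraries too. The part of this pattern in the Cyp7b1 difference was not tested.

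In the classical route no gene passed the test. Cyp7a1 had 17.1, 12.6 and 11.4 CPM in control livers and 16.0, 7.14 and 7.12 CPM with esculetin. The groups overlapped because esculetin replicate 1 lay within the control range while the other two esculetin libraries lay below it. Its log2 fold change was -0.43 (SE 0.29, 95% interval -1.06 to 0.20, edgeR adjusted p = 0.709). Leaving out single libraries, that change ran from -0.96 without esculetin replicate 1 (edgeR adjusted p = 0.497) to -0.23 without control replicate 1 (edgeR adjusted p = 0.858), and it was -0.25 without either of the other esculetin libraries. Cyp8b1 had 422, 467 and 566 CPM in controls and 423, 385 and 357 CPM with esculetin, so that only the lowest control and the highest esculetin library touched. The log2 fold change of Cyp8b1 was -0.32 with SE 0.14 (edgeR adjusted p = 0.564). Cyp27a1, the mitochondrial hydroxylase that starts the alternative route and oxidizes the side chain, had 352 to 547 CPM in controls and 476 to 503 CPM with esculetin, with a log2 fold change of 0.13 (SE 0.15). Cyp39a1, which hydroxylates 24-hydroxycholesterol, had a log2 fold change of -0.22 (SE 0.28) and overlapping groups. Ch25h, the cholesterol 25-hydroxylase, was not tested because it had 3, 0 and 0 counts in controls and 3, 0 and 3 with esculetin. It shares 50.3% of its exon bases with Gm26902 on the opposite strand, which had at most 1 count in any library of either table.

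Of the enzymes that reshape the sterol ring and shorten the side chain, 4 of the 5 tested had a fitted change above 0 and groups that did not overlap, where the groups of 14.5% of all tested genes did not, and none passed the test. Acox2, the peroxisomal oxidase of branched side chains, had 238, 266 and 268 CPM in controls and 326, 302 and 307 CPM with esculetin. Akr1c6, a steroid-reducing aldo-keto reductase, had 879, 1205 and 1219 CPM against 1275, 1356 and 1364 CPM. The racemase Amacr, which prepares the side chain for oxidation, had 141, 169 and 158 CPM against 184, 171 and 183 CPM. In these genes every esculetin library lay above every control library, by a narrow margin in Amacr. Scp2, which carries out the last thiolase step, had 2841, 2575 and 2439 CPM against 3305, 2901 and 2926 CPM, again without overlap. The log2 fold changes were 0.28 (SE 0.12) for Acox2, 0.27 (SE 0.15) for Akr1c6, 0.21 (SE 0.12) for Amacr and 0.22 (SE 0.13) for Scp2. Their adjusted p-values in edgeR ran from 0.551 to 0.686. Akr1d1, which saturates the ring, had 154, 103 and 104 CPM against 101, 126 and 90.5 CPM, with overlapping groups and a log2 fold change of -0.18 (SE 0.17). Hsd3b7, the ring dehydrogenase of the early steps, had at most 6 counts in any liver library and was not tested. In the annotation 52.6% of its exon bases are shared with the same-strand gene Gm49388, which had 0 counts in every library. Another 9430064I24Rik, on the opposite strand, covers 67.7% of them and had at most 3 counts. How reads that match several genes were handled is not given, so these counts do not show that Hsd3b7 was absent. The conjugating enzymes differed by less than their replicates, with log2 fold changes of 0.09 (SE 0.15) for Slc27a5 and 0.01 (SE 0.11, 95% interval -0.24 to 0.26) for Baat.

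Of the uptake carriers, the one farthest from 0 was Slco1a4, a sodium-independent organic anion transporter. It had 27.8, 20.7 and 19.2 CPM in control livers and 8.28, 15.2 and 9.97 CPM with esculetin. All esculetin libraries lay below all controls. The mean was 22.6 ± 4.57 CPM in controls and 11.1 ± 3.60 CPM with esculetin (SD, n = 3). The log2 fold change was -1.02 (SE 0.22, 95% interval -1.50 to -0.54), which is 2.03-fold lower and missed the threshold in edgeR (adjusted p = 0.165) while DESeq2 called it (adjusted p = 0.00392). Of its relatives on the same stretch of chromosome 6, Slco1a1 had a log2 fold change of 0.12 (SE 0.12) and Slco1b2 one of 0.16 (SE 0.23), both with overlapping groups. Slc10a2, the apical sodium-dependent carrier that is best known from the ileum and the bile duct lining, had 13.0, 7.01 and 7.87 CPM in controls and 5.78, 7.53 and 5.76 CPM with esculetin. Control replicate 1 set much of that difference, since the log2 fold change of Slc10a2 was -0.54 (SE 0.24, edgeR adjusted p = 0.576) with it and -0.22 without it. Cholangiocyte markers, led by Spp1, Krt19 and Krt7, summed to 34.2 to 37.8 CPM in controls and 30.2 to 35.5 CPM with esculetin. Of 5 tested, 2 had a fitted change above 0 and 3 below 0, and 1 had an unadjusted edgeR p-value under 0.05. Spp1 does not mark bile duct cells alone, since its mean was 843 CPM in the control RAW264.7 cells. Slc10a1, the main sodium-dependent carrier of hepatocytes, was nearly level with a log2 fold change of -0.07 (SE 0.13).

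The export pumps of the canalicular membrane had fitted changes below 0 and overlapping groups. Abcb11, the bile salt export pump, had 312 to 406 CPM in controls and 364 to 369 CPM with esculetin, with a log2 fold change of -0.03 (SE 0.13). Abcb4, which moves phosphatidylcholine into bile, had 260, 266 and 237 CPM against 242, 206 and 209 CPM, for a fitted log2 difference of -0.22 with SE 0.12 (edgeR adjusted p = 0.649). Abcc2, which exports glucuronides and other conjugates, had 280, 250 and 163 CPM against 209, 166 and 166 CPM, for a fitted log2 difference of -0.36 with SE 0.18 (edgeR adjusted p = 0.636). In both, a control library lay among or below the esculetin libraries. On the basolateral side, Abcc3, which returns conjugates to blood, had a log2 fold change of -0.11 (SE 0.15), and Abcc4 and Slc51b were too low to judge, at 16 to 44 and 9 to 18 counts per library. Their 95% intervals ran from -0.64 to 0.88 and from -1.13 to 0.64. Slc51a, the partner of Slc51b in the ostα-ostβ transporter, had at most 5 counts in any liver library and was not tested. It shares 25.2% of its exon bases with Pcyt1a on the opposite strand, which had 848 to 1419 counts.

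Nr1h4, the bile acid receptor FXR, was another gene whose groups stood apart. Its level was 113, 113 and 117 CPM in control livers and 80.8, 89.5 and 84.9 CPM with esculetin. Every esculetin library lay below every control, with means of 114 ± 2.13 and 85.0 ± 4.36 CPM (SD, n = 3). The log2 fold change of Nr1h4 was -0.42 (SE 0.11, 95% interval -0.66 to -0.19), or 1.34-fold lower, which missed the threshold (edgeR adjusted p = 0.269). The leave-one-out log2 fold changes of Nr1h4 lay between -0.47 and -0.40. The groups of its target Nr0b2 overlapped, with 65.5, 78.3 and 61.2 CPM in controls and 33.9, 77.5 and 73.5 CPM with esculetin. Esculetin replicate 1 was the only library far below the rest, and without it the log2 fold change of Nr0b2 turned from -0.15 (SE 0.24) to 0.13. Nr5a2 (LRH-1), an activator of Cyp7a1 and Cyp8b1, had a log2 fold change of 0.06 (SE 0.18), and Hnf4a, a hepatocyte-defining receptor, one of -0.09 (SE 0.12). The FGF15 receptor chains had overlapping groups and log2 fold changes of -0.25 (SE 0.13) for Fgfr4 and -0.32 (SE 0.17) for the co-receptor Klb. Klb shares 13.1% of its exon bases with Rpl9 on the opposite strand, which had 1589 to 2747 counts per liver library, and whether the counting used strand is not given in the sources used here. Gpbar1, the cell surface receptor TGR5, had at most 2 counts in any liver library and was not tested.

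**Figure D3:**
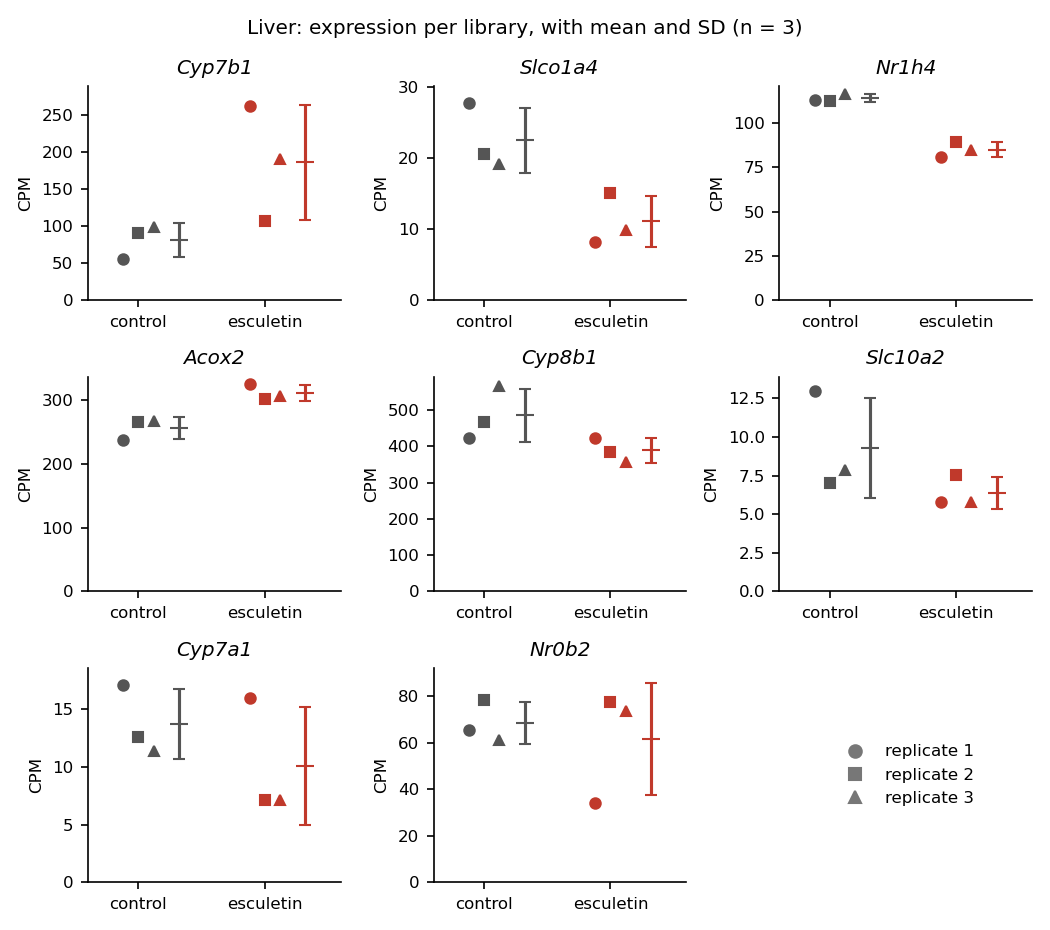
Expression in CPM of 8 bile acid genes in each liver library, with control in grey and esculetin in red. Shapes mark the replicate number and crosses with bars give the mean and SD of 3 libraries, and Cyp7b1, Slco1a4, Nr1h4 and Acox2 are the genes whose groups do not overlap.

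Upstream sequence was searched for short motifs of regulators tied to this pathway or to the study. RefSeq promoters of build GRCm38.p6, cut to the 250 bases before each start, were matched for 26 of the 33 genes and gave 31 promoters. The letters CAAGGNCA, the preferred site of Nr5a2 and its relatives, were present on either strand in those of Akr1c6, Cyp8b1, Nr0b2 and Slc51a, which is 4 of 31, and in 5.53% of all 32851 promoters. The C/EBP letters TTGCNNAA were found in 6 of 31 promoters, of 6 genes (Abcc4, Acox2, Akr1d1, Ch25h, Nr5a2 and Slc10a1), and in 9.56% of all promoters. The antioxidant response letters TGACNNNGC were found in 7 of 31, of 5 genes (Abcc2, Abcc4, Acox2, Cyp8b1 and Klb), and in 10.2% of all. The AP-1 letters TGANTCA were found in 4 of 31, of 3 genes (Acox2, Slc10a2 and Slc51b), and in 6.75% of all. The classical FXR site, an inverted repeat of AGGTCA around a single base, was found for 0 genes and in 0.01% of all promoters. The AP-1 and antioxidant matches of Acox2 overlap. A match describes letters and not a bound site. The sequences of Cyp8b1, Nr0b2 and Abcc4 are shown because Cyp8b1 and Nr0b2 are classical Nr5a2 targets and Nr0b2 and Abcc4 were called in the cells. They run 5′ to 3′ on the gene's strand up to the base before the start, and capitals mark every match to the letters above.
Cyp8b1: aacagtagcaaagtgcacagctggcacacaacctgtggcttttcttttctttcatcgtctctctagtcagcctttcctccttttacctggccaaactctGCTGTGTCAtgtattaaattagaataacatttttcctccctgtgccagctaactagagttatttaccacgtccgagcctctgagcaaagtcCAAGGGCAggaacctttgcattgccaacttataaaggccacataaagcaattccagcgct
Nr0b2: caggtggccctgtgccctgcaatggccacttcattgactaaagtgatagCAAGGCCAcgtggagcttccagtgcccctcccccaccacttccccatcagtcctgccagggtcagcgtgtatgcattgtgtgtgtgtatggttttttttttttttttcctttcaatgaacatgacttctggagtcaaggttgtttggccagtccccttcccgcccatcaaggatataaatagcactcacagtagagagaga
Abcc4: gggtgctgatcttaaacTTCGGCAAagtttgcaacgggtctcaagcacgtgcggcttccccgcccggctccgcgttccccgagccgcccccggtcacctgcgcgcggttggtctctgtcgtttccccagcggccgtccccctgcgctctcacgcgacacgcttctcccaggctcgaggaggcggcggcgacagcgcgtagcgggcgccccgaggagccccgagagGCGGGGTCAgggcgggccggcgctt
The stretches lie at chr9:121916306-121916555 on the minus strand for Cyp8b1, chr4:133553126-133553375 on the plus strand for Nr0b2 and chr14:118706220-118706469 on the minus strand for Abcc4, which has 2 listed starts of which this is the one farther upstream. The CAAGGNCA match begins 60 bases before the start of Cyp8b1 and 201 bases before that of Nr0b2.

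A list of 50 other genes of bile acid handling and its regulation was read beside the members. In the liver 45 of them were tested, and 0 were called by edgeR, with 8 at an unadjusted p-value under 0.05 (background 8.37%), 18 fitted changes above 0 and 27 below 0, and a median log2 fold change of -0.06. The smallest p-value belonged to Cyp2c70, the hydroxylase that makes the muricholic acids of mice. It had 316, 433 and 430 CPM in controls and 1192, 697 and 798 CPM with esculetin, so the groups stood well apart. The log2 fold change of Cyp2c70 was 1.19 (SE 0.20), just short of the threshold (edgeR adjusted p = 0.0527), and control replicate 1 and esculetin replicate 1 were again the lowest and highest libraries. Cyp3a11, which hydroxylates bile acids and drugs, had 1896 ± 137 CPM in controls and 1248 ± 144 CPM with esculetin (SD, n = 3), for a fitted log2 difference of -0.60 with SE 0.14 (edgeR adjusted p = 0.186). Ephx1, an epoxide hydrolase, had a fitted log2 difference of -0.55 with SE 0.14 (edgeR adjusted p = 0.271). The next smallest p-values were those of the fatty acid binding protein Fabp1 at -0.33, the transcription factor Onecut1 at 0.91 and the peroxisomal enzyme Ehhadh at -0.37 on the log2 scale, with adjusted p-values from 0.517 to 0.537 in edgeR.

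Other gene lists were read for shifts that could accompany these values. In bulk tissue, fewer cells of a type and less RNA per cell cannot be told apart. In the liver edgeR called 0 genes of the hepatocyte, cholangiocyte, Kupffer, macrophage, other immune, endothelial, stellate, adipocyte, erythroid, pancreas, intestine, clock, pericentral and periportal lists. Summed levels overlapped between the groups for endothelial markers (236 to 274 CPM in controls, 261 to 268 CPM with esculetin, led by Clec4g, Dnase1l3 and Stab2) and for Kupffer markers (373 to 442 and 350 to 391 CPM, led by Clec4f, Cd5l and C1qa). They also overlapped for macrophage markers (217 to 255 and 204 to 232 CPM), stellate markers (214 to 241 and 197 to 218 CPM) and adipocyte markers (11.7 to 38.7 and 12.5 to 53.1 CPM). Fitted changes were below 0 for 7 of 8 Kupffer, 6 of 7 macrophage, 6 of 8 stellate, 3 of 8 endothelial and 0 of 2 adipocyte markers tested. An unadjusted edgeR p-value under 0.05 (background 8.37%) was reached by 1 Kupffer, 2 macrophage and 1 stellate marker. It was also reached by 6 of 10 periportal, 3 of 10 pericentral, 5 of 15 clock and 2 of 10 hepatocyte genes tested. The same held for 1 of 1 pancreas and 1 of 2 intestine markers and 3 of 8 genes higher in female liver. Fitted changes were above 0 for 7 and below 0 for 3 of the pericentral and of the hepatocyte genes. For clock genes 4 were above 0 and 11 below 0. Erythroid markers ran from 167 to 837 CPM in controls and from 278 to 547 CPM with esculetin, intestine markers from 487 to 965 and from 391 to 500 CPM with Muc2 and Cdx2 at 0, and other immune markers from 3.80 to 4.91 and from 2.83 to 3.95 CPM. Without overlap were periportal genes, led by Ass1, Pck1 and Arg1, at 7453 to 9019 CPM in controls and 9204 to 10510 CPM with esculetin, of which 8 of 10 had a fitted change above 0, and pancreas markers, nearly all Cela1, at 16.5 to 25.3 and 26.0 to 31.5 CPM with Pnlip and Amy2b at 0. Pericentral genes, led by Cyp2e1, Oat and Glul, ran from 6918 to 9888 and from 9616 to 11164 CPM, and clock genes, Nfil3 and Tef among them, from 351 to 397 and from 335 to 358 CPM. Genes higher in female liver, led by Cyp17a1, Fmo2 and Cyp2c40 with Sult3a1 at 0, summed to only 37.9 to 45.8 CPM in controls and 43.0 to 55.4 CPM with esculetin, and 1 of 8 tested, Acot3, was called lower. The part of these lists in the values of the bile acid genes was not tested.

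In RAW264.7 cells most of the pathway was at or near 0. Of the 33 genes, 14 had 0 counts in all 6 cell libraries, which allows up to 3 counts or 0.220 CPM in the shallowest library. They were Cyp7b1, Cyp8b1, Cyp39a1, Ch25h, Akr1d1, Akr1c6, Acox2, Slc10a2, Slco1a1, Slco1a4, Slco1b2, Abcb11, Slc51b and Nr1h4. A further 12 genes (Cyp7a1, Hsd3b7, Slc27a5, Baat, Slc10a1, Abcc2, Slc51a, Nr5a2, Hnf4a, Fgfr4, Klb and Gpbar1) had 45 counts or fewer over the 6 libraries and were not tested. Slc10a1, which had most of these, shares 8.03% of its exon bases with Srsf5 on the opposite strand, a gene with 1910 to 5365 counts per cell library. For Ch25h and Hsd3b7, reads shared with the overlapping genes named above may be missing from the counts, since their handling is not given. The 7 tested genes were Cyp27a1, Amacr, Scp2, Abcb4, Abcc3, Abcc4 and Nr0b2. In the control cells, the mean level was 32.3 RPKM for Scp2, 10.9 for Abcb4, 8.49 for Cyp27a1, 5.84 for Abcc4, 2.46 for Nr0b2, 0.765 for Amacr and 0.0347 for Abcc3, and no neighbours in that order overlapped. With esculetin the mean level of Abcc4 (7.55 RPKM) was above that of Cyp27a1 (5.63), with overlapping libraries, and the mean level of Amacr (1.07 RPKM) was above that of Nr0b2 (0.703). The tables were scaled separately, and the ranges of Abcb4 overlapped between liver (17.5 RPKM, 15.2 to 19.7) and cells (10.6 to 21.9).

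The cell comparison asks which of these genes esculetin changed in oxLDL-loaded macrophages. EdgeR called 6 of the 7 tested genes, where 57.7% of all tested genes were called. The 6 include Abcc3, which passed the count filter only through its esculetin libraries and so had to differ, and 5 of the other 6 were called. The counts over these genes are therefore a description. Higher were Abcc3, Abcb4 and Abcc4, where the background of genes called higher was 28.7%, and lower were Nr0b2, Cyp27a1 and Scp2, where the background of genes called lower was 29%. The groups did not overlap for 7 of 7, with a background of 64.1%, and the study's criterion was met by 4 of 7, with a background of 38%. The median log2 fold change of the 7 was 0.37 beside -0.01 over all tested genes. Macrophage markers moved as well, with 6 of 8 called, of which 5 were higher and 1, Ctss, was lower. Their sums were 2690 to 2851 CPM in controls and 5431 to 8196 CPM with esculetin. Much of that rise was Lyz2, with a mean of 638 CPM in controls and 3496 CPM with esculetin. The part of these markers in the values above was not tested.

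Abcc3, which exports glucuronides and bile salts, was close to absent in the control cells, with 4, 5 and 3 counts, and had 67, 58 and 51 counts with esculetin. That is 0.207, 0.269 and 0.146 CPM against 4.90, 3.95 and 2.84 CPM, so the groups were far apart while the level stayed low. Its fitted log2 fold change was 4.19 (SE 0.40, 95% interval 3.31 to 5.07), or 18.3-fold. Because Abcc3 entered the test only through the group where it was high, that value is a description and no test is read from it. Abcb4, the phosphatidylcholine transporter, had 150, 150 and 143 CPM in controls and 297, 262 and 199 CPM with esculetin. It rose 1.71-fold, with a fitted log2 difference of 0.77 with SE 0.13 (edgeR adjusted p = 0.000298). Abcc4, which exports cyclic nucleotides and conjugated steroids, had 51.5, 49.5 and 50.5 CPM against 55.5, 71.5 and 68.5 CPM. It rose by less, with a fitted log2 difference of 0.37 with SE 0.10 (edgeR adjusted p = 0.010), and did not pass without esculetin replicate 2 (edgeR adjusted p = 0.0694).

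Nr0b2, the repressor SHP, was low in the cells, at 82, 118 and 109 counts in controls and 20, 23 and 27 counts with esculetin. The esculetin libraries were tightly grouped at 1.46, 1.57 and 1.51 CPM, below the controls at 4.25, 6.35 and 5.30 CPM. It was 3.49-fold lower, with a fitted log2 difference of -1.80 with SE 0.25 (edgeR adjusted p = 8.79e-05). Nr1h4, which drives Nr0b2 in liver, was among the genes at 0 in these libraries, and Nr5a2 had 3 counts in 1 of them. Cyp27a1 had 30.8, 25.8 and 27.9 CPM in controls and 22.0, 19.8 and 14.3 CPM with esculetin, with no overlap. It fell by 0.60 on the log2 scale (SE 0.15, edgeR adjusted p = 0.00624), which is 1.51-fold. Its exons share 32.8% of their bases with Prkag3 on the opposite strand, a gene with at most 1 count in any cell library. Scp2 had 220, 221 and 231 CPM against 181, 168 and 158 CPM, and fell by 0.41 on the log2 scale (SE 0.08, edgeR adjusted p = 0.00140). Amacr had 4.56, 3.93 and 6.18 CPM against 6.29, 7.77 and 6.41 CPM, which did not overlap by a narrow margin. Its log2 fold change of 0.48 (SE 0.21) missed the threshold (edgeR adjusted p = 0.0683) and passed without control replicate 3 (edgeR adjusted p = 0.0277).

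**Figure D4:**
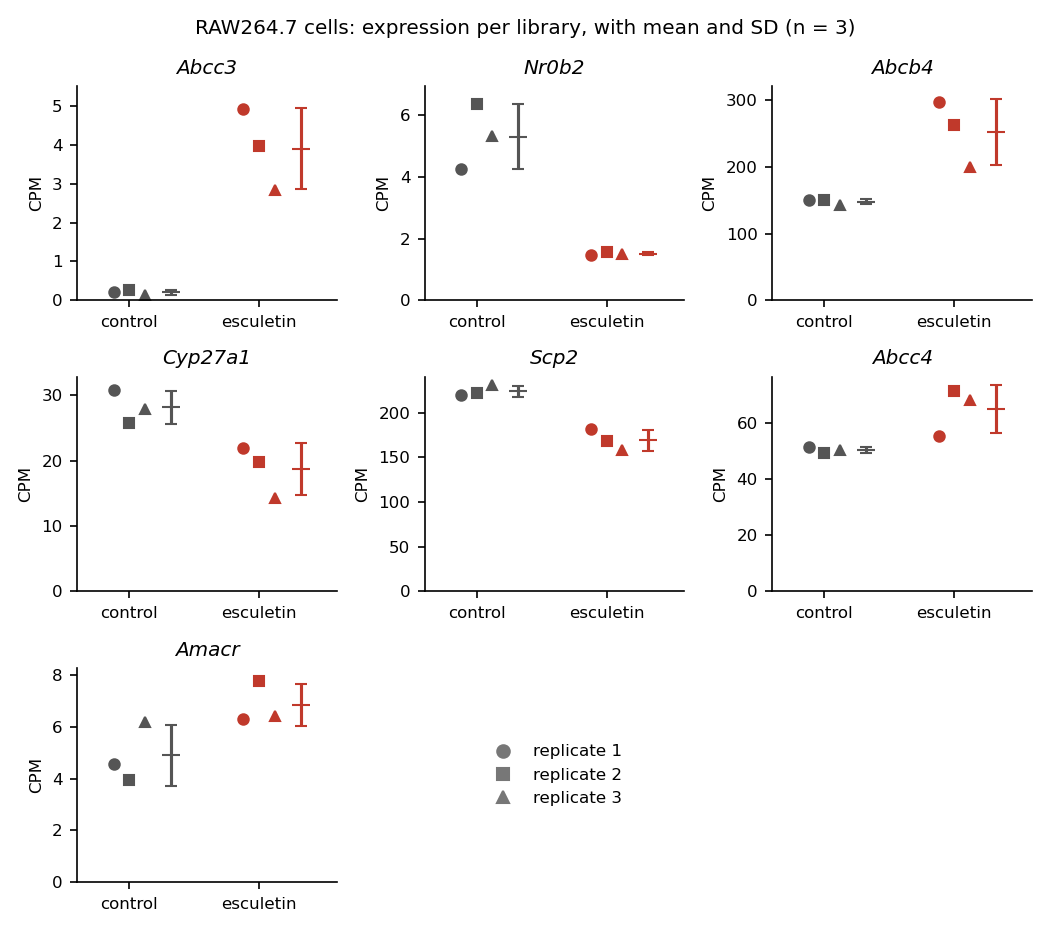
Expression in CPM of the 7 tested bile acid genes in each RAW264.7 library, with control in grey and esculetin in red. Shapes mark the replicate number and crosses with bars the mean and SD of 3 libraries, and the groups are farthest apart for Abcc3 (0.146 to 0.269 CPM against 2.84 to 4.90 CPM).

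Of the 50 other bile acid genes, 23 were tested in the cells and edgeR called 14, with 7 higher and 7 lower and a median log2 fold change of -0.05. That is close to the background of 57.7% called, 28.7% higher and 29% lower. Dhcr7, the last enzyme of cholesterol synthesis, fell by 1.44 on the log2 scale, Stard5, a sterol and bile acid binding protein, fell by 1.79, and the sterol sensor Osbp fell by 0.58. Tmem30a, a membrane protein that phospholipid flippases need, rose by 1.18 and the recycling GTPase Rab11a rose by 0.54. The adjusted p-values of these in edgeR were at most 0.000151.

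For the 7 genes tested in both systems, the esculetin effect in cells was then set against that in liver, in a 4-group edgeR model of all 12 libraries. The doses, times and treatments of the systems differ, so the contrast is between experiments and not between cell types alone. The difference was called for 5 of 7 genes, with a background of 27.1%. The 5 include Abcc3, so this count is a description. The fitted effect on Abcc3 was higher in the cells by 4.23 on the log2 scale (SE 0.40), and no test is read from it. The effect on Abcb4 was higher in the cells by 0.95 (SE 0.19, edgeR adjusted p = 0.00135). The esculetin effect was lower in the cells for Nr0b2, at -1.69 (SE 0.41, edgeR adjusted p = 0.00571), for Cyp27a1, at -0.77 (SE 0.23, edgeR adjusted p = 0.0203), and for Scp2, at -0.66 (SE 0.17, edgeR adjusted p = 0.00988). For Amacr (0.23, SE 0.20, edgeR adjusted p = 0.454) and Abcc4 (0.20, SE 0.31, edgeR adjusted p = 0.701) a difference was not detectable. The 7 genes had to pass the count filter in both systems, which Abcc3 did in the cells only through its esculetin libraries. The call for Cyp27a1 was lost in 6 of the leave-one-out fits. The call for Scp2 was lost without liver esculetin replicate 1 (edgeR adjusted p = 0.0609), and that for Nr0b2 with limma-voom (limma adjusted p = 0.0997).

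**Figure D5:**
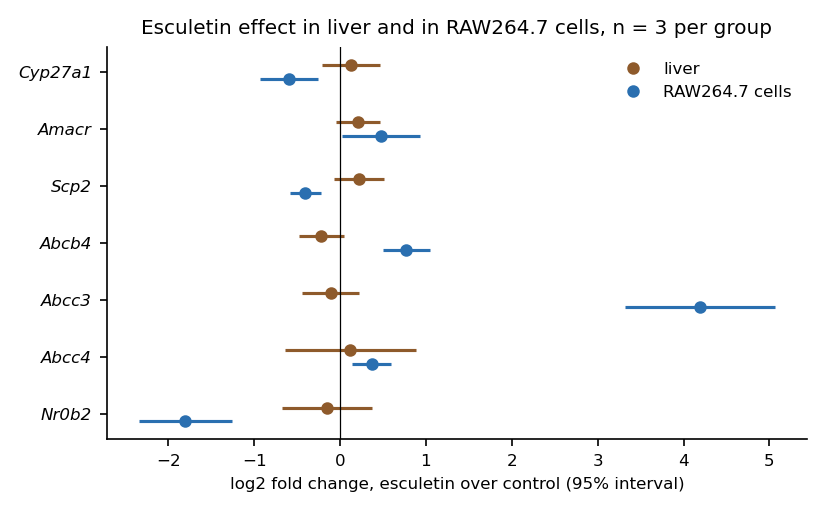
Log2 fold change of esculetin over control in liver (brown) and in RAW264.7 cells (blue) for the 7 bile acid genes tested in both, with 95% confidence intervals from fits of 3 libraries per group. All 7 liver intervals include 0. None of the 7 cell intervals does, in a table where edgeR called 57.7% of all tested genes at an adjusted p-value under 0.05. Abcc3 passed the count filter in the cells only through its esculetin libraries, so its interval is a description. Amacr (0.02 to 0.93 in the cells) was not called (edgeR adjusted p = 0.0683). Abcc3 (4.19) and Nr0b2 (-1.80) lie farthest from 0 in the cells.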

How the data were processed

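RNA was sequenced from 6 liver samples and 6 RAW264.7 samples, in 4 groups of 3. The authors deposited unnormalized read counts for each gene, with 1 table per system. According to the submitters' processing notes and the study's methods, the authors aligned reads with HISAT2 2.2.1 to build GRCm39 and counted them with featureCounts. The annotation release, the strand setting and the handling of reads that match several genes are not given in the sources used here, so counts of overlapping genes and of close relatives, such as the Slco1a, Akr1c and Abcb families, are uncertain. No column was left unused (0).

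Symbols and coordinates came from GENCODE M39 (GRCm39), which held 54749 of the 55357 identifiers. Liver and cells were fitted separately (R 4.3.3, edgeR 4.0.16) with filterByExpr, TMM factors and a quasi-likelihood test on treatment. Adjustment was by Benjamini-Hochberg over all tested genes, and calls required adjusted p under 0.05. The stated criterion of the study (p under 0.05, fold change over 1.5) was applied with limma-voom (limma 3.58.1). The difference between cells and liver was tested in a 4-group edgeR model. An exact permutation test of 3 against 3 libraries cannot go below 0.1, so gene-wise p-values rest on error shared across genes. CPM used TMM factors, and RPKM the union of exons. Upstream letters were searched with Python 3.11.15 in RefSeq promoters of GRCm38.p6. The scripts were tested on simulated data.

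Intervals are 95% intervals of the fit. The floor for a count of 0 was 3 counts and covers counting error only.

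All 33 members were named. Of the 50 other bile acid genes the 6 with the smallest p-values per table were named, and of each list of markers (hepatocyte, cholangiocyte, Kupffer, macrophage, other immune, endothelial, stellate, adipocyte, erythroid, pancreas, intestine), zones, sex-biased and clock genes the most abundant. A few genes that this rule would name are not reported here. The members and lists were chosen with earlier results of these data known. The alternatives were other scalings, other count filters, limma-voom, DESeq2 1.42.0, a replicate block and leaving out each library. A canonical transcript length was added after seeing the data.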

Additional observations from a re-analysis of the deposited data

Results flagged for a closer look

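For 5 genes, Abcc3 among them, the difference of the esculetin effect between RAW264.7 cells and liver was called (edgeR, 4-group model of 12 libraries, adjusted p-value under 0.05). As cells minus liver on the log2 scale, the difference was 4.23 for Abcc3 and 0.95 for Abcb4, which were higher in the cells with esculetin than in control cells, and -1.69 for Nr0b2, -0.77 for Cyp27a1 and -0.66 for Scp2, which were lower. Abcc3 passed the count filter of the cell table only through its esculetin libraries, with 4, 5 and 3 counts in control cells. Its difference is therefore a description and no test is read from it. The call for Cyp27a1 was lost in 6 of the leave-one-out fits, that for Scp2 without liver esculetin replicate 1 (edgeR adjusted p = 0.0609) and that for Nr0b2 with limma-voom (limma adjusted p = 0.0997). In the liver none of these 5 genes was called, and the dose, the time and the oxLDL exposure differ between the experiments.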

How the results depend on the processing

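In the liver, 0 members were called by the edgeR test as reported. The count was 2 without a filter on low counts (Cyp7b1 and Slco1a4, where 1.52% of all genes were called). With DESeq2 it was 1 (Slco1a4, where 0.765% of all genes were called). It was 0 to 1 when single libraries were left out, where 0 to 0.238% of all genes were called. Cyp7b1 was called without esculetin replicate 2, where 0.113% of all genes were called. The cause was not tested. With the replicate number as a block it was 2, Cyp7b1 (log2 fold change 1.13, edgeR adjusted p = 0.0170) and Slco1a4 (-1.04, edgeR adjusted p = 0.0110), and 0.960% of all genes were called. The deviations of samples with the same number correlated at 0.17, -0.01 and 0.14 in the liver and 0.22, -0.04 and 0.15 in the cells. Whether such samples shared more than the number is not given in the labels and was not tested. The block changed no call of a member in the cells or of the difference between systems.

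By an unadjusted limma p-value under 0.05 alone, without the fold, 5 liver and 7 cell members, Abcc3 included, passed in place of 2 and 4. The share of all genes passing that cut was not computed, so these counts are a description. An unadjusted edgeR p-value under 0.05 was reached by 8.37% of all tested liver genes. After adjustment limma-voom called 58.1% of all tested genes in the cells. In the cells 5 to 7 of 7, Abcc3 included, were called when single libraries were left out, where 47.6% to 57.8% of all genes were called. The difference between cells and liver was called for 3 to 5 of 7, a count that includes Abcc3. The fit as reported called it for 27.1% of all tested genes. The difference of Nr0b2 missed with limma-voom (limma adjusted p = 0.0997). That of Cyp27a1 missed in 6 of the leave-one-out fits, with adjusted p-values from 0.050 to 0.0702 in edgeR, and that of Abcc4 ran from -0.041, without liver esculetin replicate 2, to 0.45.

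Over 405 refits of the 29 liver members, 19 members kept their sign, and 10 that were not called turned in at least 1. With library size only, Baat was at -0.057 and Nr5a2 at -0.015, and with a minimum of 1 CPM Baat was at -0.0093. Leaving out single libraries, log2 fold changes ran from -0.0056 to 0.31 for Cyp27a1, -0.34 to 0.040 for Akr1d1, -0.049 to 0.22 for Slc27a5, -0.041 to 0.037 for Baat, -0.065 to 0.55 for Slco1b2, -0.16 to 0.038 for Abcb11, -0.23 to 0.092 for Abcc3, -0.11 to 0.41 for Abcc4, -0.36 to 0.13 for Nr0b2 and -0.065 to 0.28 for Nr5a2. In the cells 0 of 98 refits turned a sign. Changes of genes with under 20 counts per library, such as Slc51b, were not detectable at this depth.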
